A study of Mus musculus with 9 samples.

Results

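Endothelial genes are read here in sorted blood stem and progenitor cells of the mouse fetal liver. The set holds 34 genes, chosen by symbol, of 55488 genes listed in every library: 7 receptors, 15 genes used widely by endothelium, 4 sinusoidal or lymphatic genes, 3 SoxF transcription factors and 5 arterial or haemogenic genes. Tek is among them because its product, Tie2, gives its name to the Cre driver of the study. All 34 were found, on 15 chromosomes. By the mean over 9 libraries, 15 were at 5 TPM or more (a share of all transcripts, corrected for gene length), 10 at 1 to 5 TPM and 9 under 1 TPM.

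The study profiled RNA from C57BL/6 fetal livers on embryonic day 14.5, with 100 sorted cells to a library and 3 libraries in each of 3 groups. Evi1 HSC were GFP+ cells of a haematopoietic stem cell gate (CD150+CD48-c-Kit+Sca-1+Lin-) of genotype Tie2-Cre::ROSA-Evi1. Tie2-Cre places a recombinase under Tek regulatory sequence, which is active in endothelium and blood, and Mecom encodes the zinc finger transcription factor Evi1. WT HSC were sorted with the same surface markers, with no GFP criterion given, and WT KL (c-Kit+Sca-1-Lin-) are a gate of committed progenitors. Both WT groups carried ROSA-Evi1 without a Cre named, so all 3 groups share the ROSA-Evi1 allele. No label says that replicates came from separate embryos, so every p-value here speaks only of the spread among these libraries. In bulk samples of this kind, fewer cells of a type and less RNA per cell cannot be told apart.

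A pair of libraries goes against its labels. Mecom was at 209, 176 and 209.7 TPM across Evi1 HSC, 161, 114 and 0.0167 TPM across libraries labelled WT HSC, and 90.8, 0.0107 and 0.325 TPM across those labelled WT KL, each in the order of replicates 1 to 3, as everywhere below. Ly6a, which encodes Sca-1 of the sorting gates, was at 39.1, 58.6 and 20.7 TPM across Evi1 HSC, 13.2, 17.6 and 0 TPM across libraries labelled WT HSC, and 19.7, 0 and 0.0354 TPM across those labelled WT KL. The library labelled WT HSC 3 thus lacked both, and the library labelled WT KL 1 held both. Kit was at 64.8 TPM or more in every library, and the Egfp row stood at 23.4 to 27.3 TPM in Evi1 HSC and at most 0.380 TPM in the rest. Comparisons are therefore given for the 9 libraries as labelled and for 7 libraries, without those labelled WT HSC 3 and WT KL 1. The number of genes at 1 TPM or more ran from 15422 to 18806 per library, and read depth is unknown because TPM does not keep it.

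The angiopoietin receptor Tie2 and the VEGF receptors carry the main growth and survival signals of vessel endothelium, and VE-cadherin holds its cells together. Blood stem cells arise in the embryo from haemogenic endothelium, and both lineages keep many surface proteins in common. In the fetal liver the same sorted suspension can hold sinusoidal endothelium, whose hallmarks are the scavenger receptors Stab1 and Stab2 and the hyaluronan receptor Lyve1.

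A set of 3 patterns stood out among the 34 genes. Tek, Tie1, Adgrl4, Eng, Cd93, Mmrn1, Neurl3 and others were strong in every Evi1 HSC library, in WT HSC 1 and 2 and in the library labelled WT KL 1, and near 0 or low in the remaining 3 libraries. Stab1, Stab2, Lyve1 and Flt4 were present in Evi1 HSC and WT HSC 2 but low in WT HSC 1. Gja4, Gja5 and Aplnr were under 1 TPM in all 9 libraries. The summed level of the 34 genes was 1057, 972 and 1578 TPM across Evi1 HSC, 1023, 995 and 67.4 TPM across libraries labelled WT HSC, and 908, 52.2 and 52.1 TPM across those labelled WT KL.

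**Figure D1:**
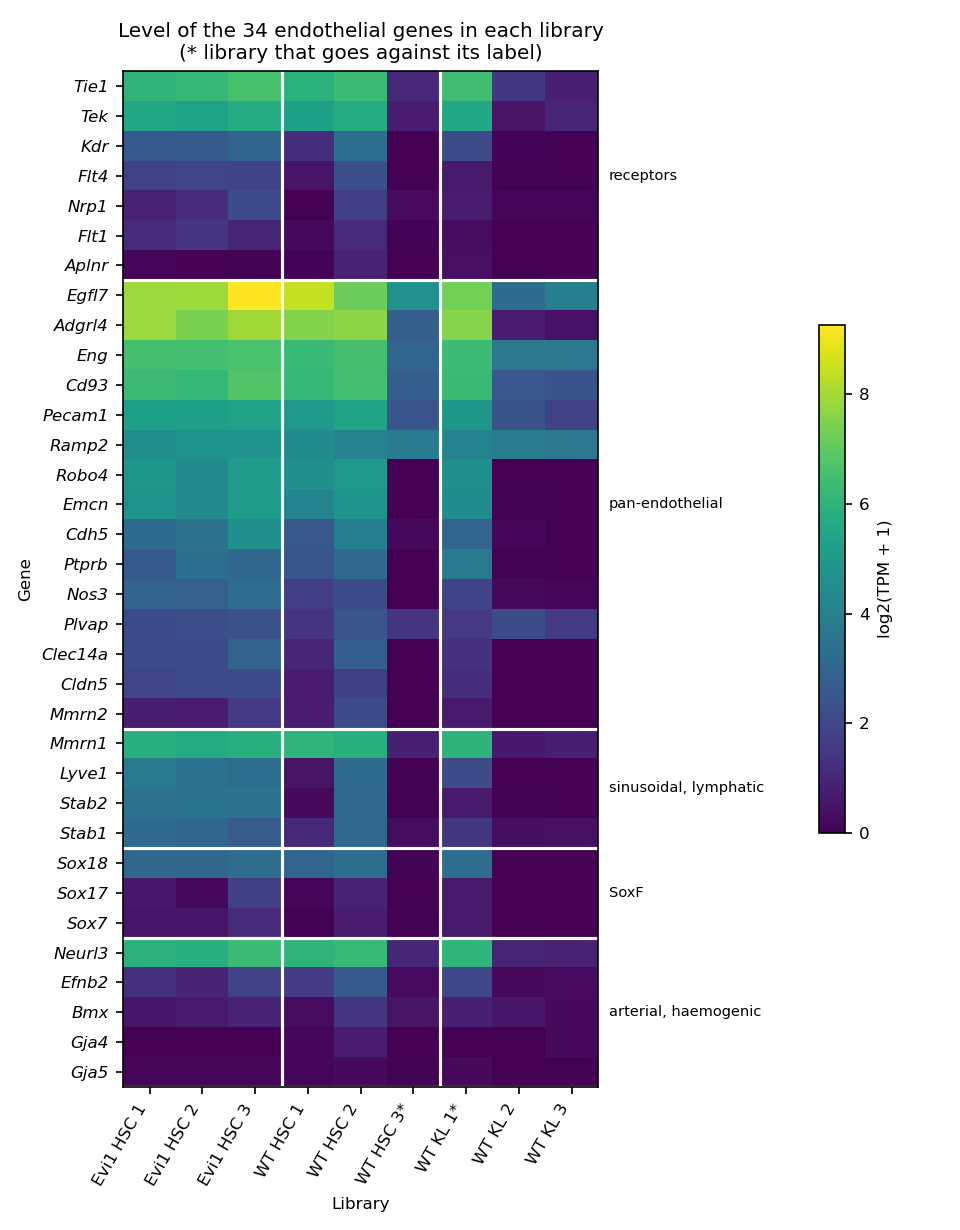
Level of the 34 endothelial genes (rows, by role) in the 9 libraries (columns), as log2(TPM + 1), with an asterisk on each library that goes against its label. The columns WT HSC 3 and WT KL 2 and 3 are dark in most rows, and WT HSC 1 is dark in the rows of Stab1, Stab2, Lyve1 and Flt4, where it held 1.08, 0.175, 0.393 and 0.421 TPM.

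Promoter sequence is shown for 4 genes of the first 2 patterns: Tek, Adgrl4 and Eng, strong in both WT HSC 1 and 2, and Stab1, low in WT HSC 1. Each window holds the 250 bases before a RefSeq start on GRCm38.p6, 5′ to 3′ on the gene's strand, and lies outside the annotated exons. Capitals mark matches, on either strand, to the ETS core AGGAAG, the motif AGATAA of GATA factors, the SOX core ACAAT and the motif GACAAG, which is the core of the sequence bound by the first zinc finger domain of EVI1.
Tek chr4:94739039-94739288, plus strand: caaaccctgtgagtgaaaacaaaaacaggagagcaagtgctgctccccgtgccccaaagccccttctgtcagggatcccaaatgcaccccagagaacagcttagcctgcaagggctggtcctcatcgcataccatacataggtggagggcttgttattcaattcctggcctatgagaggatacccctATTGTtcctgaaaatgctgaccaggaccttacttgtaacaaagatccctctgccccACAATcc
Adgrl4 chr3:151437632-151437881, plus strand: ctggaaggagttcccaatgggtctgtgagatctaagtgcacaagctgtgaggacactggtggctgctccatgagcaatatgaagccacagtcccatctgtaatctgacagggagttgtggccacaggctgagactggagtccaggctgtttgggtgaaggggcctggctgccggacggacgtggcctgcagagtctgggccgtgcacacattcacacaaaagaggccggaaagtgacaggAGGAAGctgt
Eng chr2:32646345-32646594, plus strand: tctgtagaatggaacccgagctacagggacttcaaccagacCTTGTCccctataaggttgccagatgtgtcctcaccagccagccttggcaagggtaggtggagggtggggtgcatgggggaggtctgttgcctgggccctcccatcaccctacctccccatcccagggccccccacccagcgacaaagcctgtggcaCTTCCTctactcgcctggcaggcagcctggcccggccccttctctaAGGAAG
Stab1 chr14:31168642-31168891, minus strand: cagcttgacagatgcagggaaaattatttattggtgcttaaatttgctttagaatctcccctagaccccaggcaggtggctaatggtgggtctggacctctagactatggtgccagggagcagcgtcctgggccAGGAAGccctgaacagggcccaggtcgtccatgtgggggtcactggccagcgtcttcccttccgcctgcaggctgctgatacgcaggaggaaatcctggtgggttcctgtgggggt
RefSeq windows were found for 21 of the 34 genes, 23 windows in all. AGGAAG lay in 12 of these 23 windows (52.2%), against 29.5% of all 32851 promoter windows. ACAAT lay in 30.4% of the gene set's windows, against 27.7% of all, GACAAG in 17.4%, against 11.6%, and AGATAA in 4.35%, against 9.99%. The windows of the set were also richer in G and C, with a median of 58.0% against 52.4% in all windows. These are matches of letters, overlaps included, and describe no binding.

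Among the receptors the angiopoietin pair was the most abundant. Tek (chr4:94739289-94874976, plus strand, GRCm38) was at 44.9, 39.98 and 50.5 TPM across Evi1 HSC, 37.7, 50.4 and 0.636 TPM across libraries labelled WT HSC, and 45.6, 0.395 and 0.931 TPM across those labelled WT KL. Tie1, the orphan partner of Tie2, was at 63.8, 71.04 and 93.4 TPM across Evi1 HSC, 59.1, 79.6 and 1.07 TPM across libraries labelled WT HSC, and 85.4, 1.81 and 0.742 TPM across those labelled WT KL. Levels of both overlapped between Evi1 HSC and WT HSC 1 and 2, and both genes were under 2 TPM in WT KL 2 and 3. Kdr, the main VEGF receptor of endothelium, was at 4.87, 5.04 and 6.91 TPM across Evi1 HSC, 1.31, 9.24 and 0.0121 TPM across libraries labelled WT HSC, and 3.28, 0.0761 and 0.0103 TPM across those labelled WT KL. Flt4, the VEGF-C receptor of lymphatic and sinusoidal endothelium, was at 2.48, 2.79 and 2.6 TPM across Evi1 HSC, 0.421, 3.83 and 0.0244 TPM across libraries labelled WT HSC, and 0.581, 0 and 0.0225 TPM across those labelled WT KL. Flt1, a VEGF receptor known as a decoy, was at 1.17, 1.6 and 0.959 TPM across Evi1 HSC, 0.15, 1.13 and 0.0659 TPM across libraries labelled WT HSC, and 0.225, 0.00844 and 0.00881 TPM across those labelled WT KL. Kdr, Flt4 and Flt1 were each lower in WT HSC 1 than in every Evi1 HSC library and WT HSC 2, while WT HSC 2 lay above all 3 Evi1 HSC libraries for Kdr and Flt4. Nrp1, a co-receptor for VEGF and semaphorins, ranged over 0.015 to 3.36 TPM, lowest in WT HSC 1 and highest in Evi1 HSC 3. Aplnr, the apelin receptor, ranged over 0 to 0.86 TPM.

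**Figure D2:**
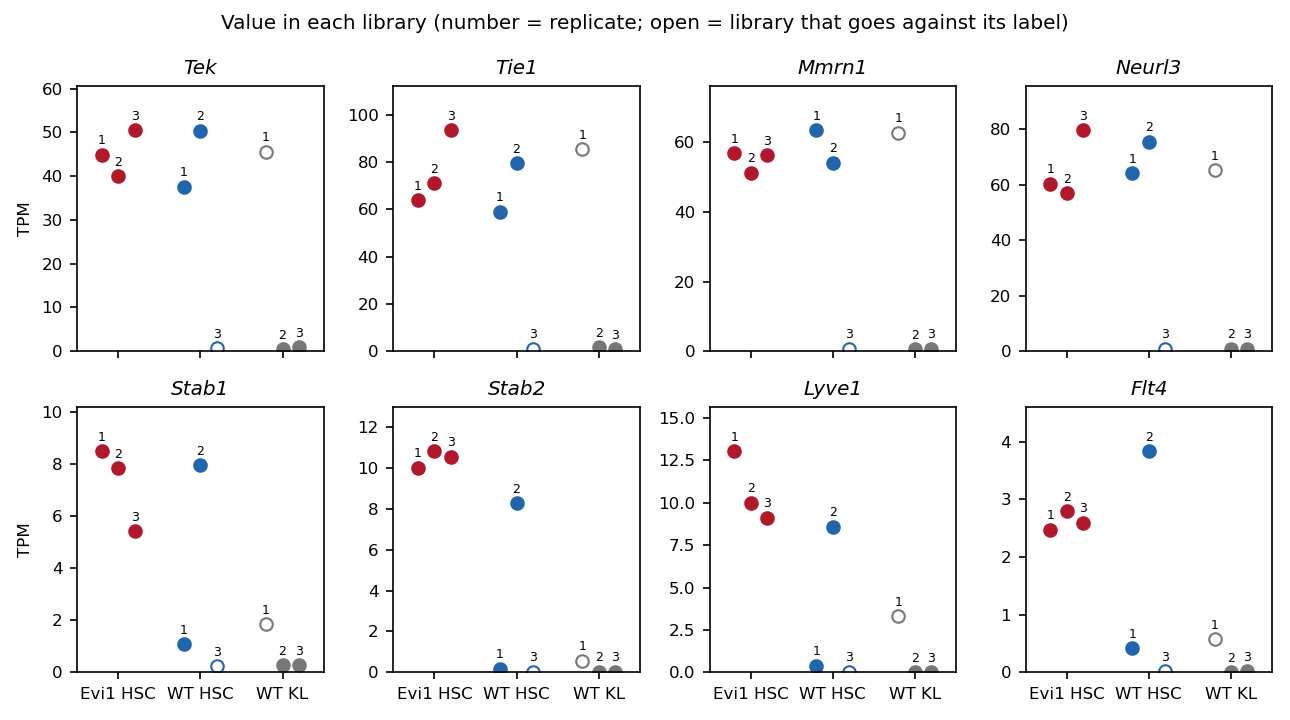
TPM (vertical axis, linear, from 0) of 8 genes in each library by labelled group, numbered by replicate, with open points for the libraries that go against their labels. In the upper row WT HSC 1 lies near WT HSC 2 (Tek 37.7 and 50.4 TPM), and in the lower row far below it (Stab2 0.175 and 8.26 TPM).

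Of the genes used widely by endothelium, the most abundant were Egfl7 and Adgrl4. Egfl7, a secreted matrix protein (chr2:26580014-26593120, plus strand), was at 235, 236 and 609.8 TPM across Evi1 HSC, 346, 139 and 24.6 TPM across libraries labelled WT HSC, and 156, 8.61 and 14.9 TPM across those labelled WT KL. Adgrl4, an adhesion receptor of the G protein-coupled family (chr3:151437887-151545086, plus strand), was at 231, 169 and 246 TPM across Evi1 HSC, 186, 202 and 6.0 TPM across libraries labelled WT HSC, and 189.8, 0.689 and 0.359 TPM across those labelled WT KL. Egfl7 was the member with the widest gap in the other direction between WT HSC 1 and 2, the first being 2.5 times the second, and its Evi1 HSC libraries lay above WT HSC 2 and on both sides of WT HSC 1. The Egfl7 model shares 401 of 3581 exonic bases with other genes, among them Mir126a, which lies inside it. The Mir126a row was at 7.3, 11.6 and 11.2 TPM across Evi1 HSC, 2.67, 8.66 and 0 TPM across libraries labelled WT HSC, and 6.76, 0 and 0 TPM across those labelled WT KL, which measures reads over that stretch and not the mature RNA. The mature sequence of miR-126a-3p is shown because its hairpin lies within a member, with its seed, bases 2 to 8, in capitals.
mmu-miR-126a-3p, chr2:26591402-26591423, plus strand, GRCm38.p6: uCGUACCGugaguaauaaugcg

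The junction and surface proteins followed. Cdh5, VE-cadherin, was at 8.46, 10.3 and 24.2 TPM across Evi1 HSC, 4.76, 14.8 and 0.136 TPM across libraries labelled WT HSC, and 7.12, 0.111 and 0 TPM across those labelled WT KL. Pecam1, the adhesion molecule CD31, was at 36.1, 36.3 and 39.7 TPM across Evi1 HSC, 30.00, 40.9 and 4.42 TPM across libraries labelled WT HSC, and 29.2, 4.1 and 2.57 TPM across those labelled WT KL. Emcn, the sialoglycoprotein endomucin, was at 25.7, 19.99 and 32.7 TPM across Evi1 HSC, 16.9, 26.8 and 0.0185 TPM across libraries labelled WT HSC, and 21.9, 0.0301 and 0 TPM across those labelled WT KL. In each of these genes WT HSC 1 was the lowest of the 5 HSC libraries kept, by far less for Pecam1 and Emcn than for Cdh5, and Evi1 HSC and WT HSC overlapped. Eng, a co-receptor for TGF-beta family ligands (chr2:32646595-32682669, plus strand), was at 90.97, 89.5 and 95.03 TPM across Evi1 HSC, 74.2, 91.1 and 7.07 TPM across libraries labelled WT HSC, and 80.2, 11.8 and 11.7 TPM across those labelled WT KL. Cd93, a lectin-like receptor, was at 79.9, 70.2 and 105 TPM across Evi1 HSC, 71.2, 88.05 and 5.82 TPM across libraries labelled WT HSC, and 78.3, 4.69 and 4.33 TPM across those labelled WT KL. Robo4, a guidance receptor of vessels, was at 28.5, 20.7 and 32.5 TPM across Evi1 HSC, 23.7, 30.4 and 0 TPM across libraries labelled WT HSC, and 24.2, 0 and 0.0209 TPM across those labelled WT KL. Eng and Cd93 kept levels above 4 TPM in the WT KL libraries, whereas Robo4 was listed at 0 or near 0 there.

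Ptprb, the phosphatase VE-PTP that acts on Tie2 and VE-cadherin, was at 4.95, 9.42 and 7.8 TPM across Evi1 HSC, 4.53, 8.0 and 0 TPM across libraries labelled WT HSC, and 12.3, 0.0259 and 0 TPM across those labelled WT KL. Nos3, the endothelial nitric oxide synthase, was at 6.51, 6.13 and 8.87 TPM across Evi1 HSC, 2.18, 3.3 and 0 TPM across libraries labelled WT HSC, and 2.66, 0.14 and 0.108 TPM across those labelled WT KL. Ramp2, which pairs with Calcrl to form an adrenomedullin receptor, was at 23.5, 26.2 and 25.6 TPM across Evi1 HSC, 20.9, 15.8 and 12.8 TPM across libraries labelled WT HSC, and 16.5, 13.7 and 11.9 TPM across those labelled WT KL. Nos3 and Ramp2 were higher in every Evi1 HSC library than in WT HSC 1 and 2, and the Nos3 and Ramp2 models share 1334 of 4132 and 1103 of 3301 exonic bases with neighbours, so reads of neighbouring genes may enter both rows. Cldn5, a tight junction protein, was at 2.8, 3.21 and 3.11 TPM across Evi1 HSC, 0.61, 2.36 and 0 TPM across libraries labelled WT HSC, and 1.32, 0 and 0 TPM across those labelled WT KL. Clec14a, a lectin-like receptor, was at 3.21, 3.27 and 6.69 TPM across Evi1 HSC, 0.979, 5.8 and 0 TPM across libraries labelled WT HSC, and 1.53, 0 and 0 TPM across those labelled WT KL. In both, WT HSC 1 was the lowest of the HSC libraries kept, with WT HSC 2 also below Evi1 HSC for Cldn5 and within their range for Clec14a. Plvap, the protein of endothelial diaphragms, ranged over 1.61 to 4.49 TPM with overlap of all 3 groups. Mmrn2, a matrix ligand of Cd93 and Clec14a, ranged over 0 to 3.42 TPM.

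The sinusoidal genes split into 2 patterns. Stab1 (chr14:31139013-31168641, minus strand) was at 8.47, 7.82 and 5.42 TPM across Evi1 HSC, 1.08, 7.95 and 0.242 TPM across libraries labelled WT HSC, and 1.85, 0.276 and 0.287 TPM across those labelled WT KL. Stab2 (chr10:86841198-87008025, minus strand) was at 10.01, 10.8 and 10.5 TPM across Evi1 HSC, 0.175, 8.26 and 0.0373 TPM across libraries labelled WT HSC, and 0.58, 0.0388 and 0.0254 TPM across those labelled WT KL. Lyve1 (chr7:110850607-110863239, minus strand) was at 13.03, 9.995 and 9.13 TPM across Evi1 HSC, 0.393, 8.58 and 0.0373 TPM across libraries labelled WT HSC, and 3.31, 0 and 0 TPM across those labelled WT KL. For all 3, Evi1 HSC and WT HSC 2 were close, WT HSC 1 was lower than each of them, and the library labelled WT KL 1 lay between WT HSC 1 and WT HSC 2. Mmrn1, multimerin, stored in platelets and found in lymphatic endothelium (chr6:60924976-60989378, plus strand), was at 56.9, 51.3 and 56.3 TPM across Evi1 HSC, 63.5, 54.1 and 0.774 TPM across libraries labelled WT HSC, and 62.8, 0.553 and 0.701 TPM across those labelled WT KL. WT HSC 1 was here the highest of all libraries. The Stab2 model shares 141 of 8757 exonic bases with an antisense transcript and the Stab1 model 112 of 10288 with Nt5dc2.

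Sox18, the SoxF factor of vascular and lymphatic development, was at 7.27, 7.45 and 8.87 TPM across Evi1 HSC, 7.15, 9.03 and 0.0672 TPM across libraries labelled WT HSC, and 8.99, 0 and 0 TPM across those labelled WT KL. Its paralogs were low, with Sox7 at 0 to 1.21 TPM and Sox17 at 0 to 2.38 TPM, each highest in Evi1 HSC 3. Neurl3, a ubiquitin ligase known in the mouse embryo as a marker of haemogenic endothelium (chr1:36264597-36274679, minus strand), was at 60.4, 56.9 and 79.6 TPM across Evi1 HSC, 64.1, 75.5 and 0.973 TPM across libraries labelled WT HSC, and 65.3, 0.932 and 0.912 TPM across those labelled WT KL. Efnb2, the ephrin ligand of arteries, was at 1.51, 0.857 and 2.53 TPM across Evi1 HSC, 2.13, 4.99 and 0.202 TPM across libraries labelled WT HSC, and 3.0, 0.155 and 0.193 TPM across those labelled WT KL. Sox18 and Neurl3 overlapped between Evi1 HSC and the WT HSC libraries kept, and Efnb2 was highest in WT HSC 2. The arterial connexin genes Gja4 and Gja5 ranged over 0 to 0.637 TPM and 0.0109 to 0.187 TPM, and Bmx, a tyrosine kinase of arterial endothelium, over 0.18 to 1.77 TPM.

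WT HSC were compared with WT KL, a stem cell gate with a progenitor gate. With 7 libraries, 19 of the 27 members tested were higher in WT HSC and none was lower, where 27.3% of all 18943 genes tested were called higher and 10.4% lower. They comprised 3 receptors (Tek, Tie1, Kdr), 12 widely used genes, Mmrn1, Sox18, Neurl3 and Efnb2. The median difference of the 27 was 2.71 on the log2(TPM + 1) scale, against 0.259 over all genes tested. A gene had to reach 1 TPM in 3 libraries to be tested, and 14 of the 19 were under 1 TPM in both WT KL 2 and 3. These 14 could pass the filter only through the HSC groups, so their direction was set by the filter, and the other 5 were Tie1, Pecam1, Eng, Egfl7 and Cd93. Of all 27 tested, 20 were under 1 TPM in both WT KL 2 and 3. The filter thus also shaped the median of 2.71, which is only a description. As labelled, with 9 libraries, no member was called and 0.00514% of genes were. There the adjusted p (limma) of the 27 lay between 0.963 and 0.999, none had an unadjusted p under 0.05, and their median difference was 0.803.

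The size of the difference varied by gene. Of the 5 members called that were still at 1 TPM or more in WT KL 2 or 3, Tie1 was higher in WT HSC by 4.97 (SE 0.29, limma adjusted p = 1.0e-04) and Egfl7 by 4.15 (SE 0.60, adjusted p = 0.00241). Cd93 was higher by 3.86 (SE 0.21, limma adjusted p = 8.6e-05), Pecam1 by 3.08 (SE 0.23, adjusted p = 1.96e-04) and Eng by 2.71 (SE 0.14, adjusted p = 6.7e-05). Among the 14 whose direction the filter set, the sizes were 7.01 (SE 0.21) for Adgrl4, 5.20 (SE 0.15) for Mmrn1, 5.20 (SE 0.20) for Neurl3 and 4.76 (SE 0.23) for Tek, given as a description. The gene of the Cre driver was thus under 1 TPM in both progenitor libraries kept. Cdh5 at 3.18 and Kdr at 2.22, of the same 14, had larger errors (SE 0.59 and 0.62). Kdr lost its call without WT KL 2 or WT KL 3 and with no filter on low values. Efnb2, also of the 14, at 1.88 (SE 0.40), lost its call without WT HSC 2, WT KL 2 or WT KL 3.

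The 8 tested members that were not called between WT HSC and WT KL were Plvap, Ramp2, Flt1, Flt4, Nrp1, Stab1, Stab2 and Lyve1. Ramp2 differed by 0.48 (SE 0.18, limma adjusted p = 0.0732) and Plvap by 0.061 (SE 0.38, adjusted p = 0.916). Stab1, Stab2 and Lyve1 differed by 1.75, 1.68 and 1.87, with SE of 0.62, 0.82 and 0.78 (adjusted p = 0.0622, 0.151 and 0.102). Without WT HSC 1 the differences were 3.17 for Stab2, 2.81 for Stab1, 3.26 for Lyve1, 2.26 for Flt4 and 1.08 for Flt1. All of these genes were under 1 TPM in both WT KL 2 and 3, so that the filter set their direction. WT HSC is then an arm of 1 library, so only the sizes are given.

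Evi1 HSC were also set against WT KL, which shares the WT KL libraries with the preceding comparison. With 7 libraries 25 of the 27 members tested were higher in Evi1 HSC and none lower, where 31.9% of all genes tested were called higher and 13.9% lower. Of the 25, 19 were under 1 TPM in both WT KL 2 and 3, Tek, Nos3, Stab1, Stab2, Lyve1 and Mmrn1 among them, so that the filter set their direction. The median difference of the 27 was 3.14, against 0.283 over all genes. With 20 of the 27 under 1 TPM in both WT KL 2 and 3, the filter shaped this median too, so it is only a description. The members not called were Plvap, at 0.31 (SE 0.35, limma adjusted p = 0.499), and Nrp1. All 4 sinusoidal genes were among these 19, so their sizes are given as a description. Stab1 was at 2.66 (SE 0.56), Stab2 at 3.47 (SE 0.75) and Lyve1 at 3.54 (SE 0.71). Tek at 4.81 (SE 0.21) and Nos3 at 2.85 (SE 0.23), also of the 19, are described in the same way. Ramp2, above 1 TPM in WT KL 2 and 3, was higher by 0.92 (SE 0.16, limma adjusted p = 0.00395). Stab2 lost its call without WT KL 2 or without WT KL 3. As labelled, 0.0103% of genes and no member were called, 14 of the 27 members and 15.2% of all genes tested had an unadjusted p under 0.05, and the smallest adjusted p of a member (limma) was 0.310.

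**Figure D3:**
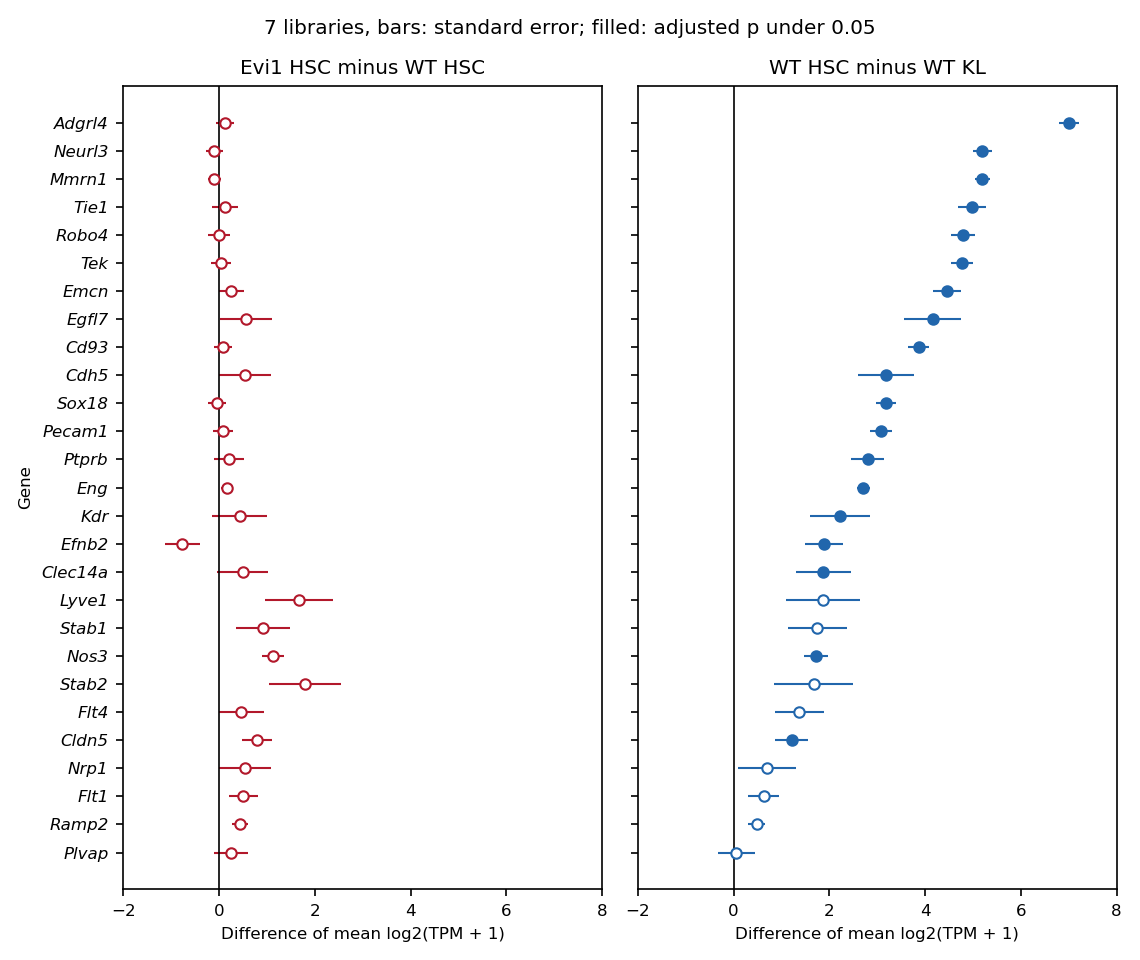
Difference of mean log2(TPM + 1) with its standard error for the 27 members tested in 7 libraries, Evi1 HSC minus WT HSC on the left and WT HSC minus WT KL on the right, filled where the adjusted p (limma) is under 0.05. No point is filled on the left and 19 are on the right, and the bars are longest for Stab2 and Lyve1 in both panels (SE 0.75 and 0.71 on the left, 0.82 and 0.78 on the right).

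Evi1 HSC were compared with WT HSC, sorted with the same surface markers. Tie2-Cre and the GFP criterion are given for Evi1 HSC alone, so effects of these and of ectopic Evi1 cannot be told apart. No member was called with 7 libraries, where 0.206% of all genes tested were called, 39 genes in all and 1600 (8.45%) at an unadjusted p under 0.05. Among the 27 members tested, 4 had an unadjusted p under 0.05, and the smallest adjusted p (limma) was 0.188, for Nos3. As labelled, with 9 libraries, no member was called either, where 0.00514% of genes were, 6 members and 907 of all genes (4.66%) had an unadjusted p under 0.05, and the smallest adjusted p (limma) of a member was 0.791. The differences leaned upward, 22 of 27 being above 0, with a median of 0.258 against 0.002 over all genes tested. This lean depended in part on WT HSC 1. For Pecam1, Kdr, Flt4, Plvap and Sox18, WT HSC 1 lay below every Evi1 HSC library and WT HSC 2 above every one. For Cldn5, Nos3, Ramp2, Stab2 and Lyve1 both WT HSC libraries lay below. Tek differed by 0.044 (SE 0.21, limma adjusted p = 0.980), Tie1 by 0.13 (SE 0.27, adjusted p = 0.945) and Egfl7 by 0.56 (SE 0.54, adjusted p = 0.849). A p above the threshold does not show that the groups were alike, and the errors bound the Tek difference far more tightly than that of Egfl7.

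In 5 members all Evi1 HSC libraries lay above WT HSC 1 and 2, namely Cldn5, Nos3, Ramp2, Stab2 and Lyve1, where 11.9% of all genes tested did so. Nos3 differed by 1.13 (SE 0.23, limma adjusted p = 0.188), Cldn5 by 0.80 (SE 0.31, adjusted p = 0.563) and Ramp2 by 0.44 (SE 0.16, adjusted p = 0.531). Stab2 differed by 1.79 (SE 0.75, limma adjusted p = 0.589), Lyve1 by 1.67 (SE 0.71, adjusted p = 0.595) and Stab1 by 0.91 (SE 0.56, adjusted p = 0.732). These last values rested on WT HSC 1. Without WT HSC 2, so against WT HSC 1 alone, Stab2 differed by 3.28 and Lyve1 by 3.06. Both then passed the filter only through Evi1 HSC, so that the filter set their direction. Without WT HSC 1, so against WT HSC 2 alone, the differences of Stab2, Lyve1 and Stab1 were 0.30, 0.28 and -0.14. Efnb2 went the other way, at -0.77 (SE 0.37, limma adjusted p = 0.644), its Evi1 HSC libraries reaching 0.857 to 2.53 TPM, against 2.13 TPM in WT HSC 1 and 4.99 TPM in WT HSC 2. Kdr at 0.43 (SE 0.57) and Cdh5 at 0.54 (SE 0.54) changed sign without WT HSC 1, to -0.65 and -0.19.

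WT HSC 1 and 2 differed widely in many members, a description chosen after the values had been seen. In 14 of the 34 genes WT HSC 1 was more than 4 times lower than WT HSC 2. Of the 27 tested members 8 (29.6%) were so, against 1.91% of all genes tested, and in none was WT HSC 2 more than 4 times lower than WT HSC 1, against 1.49% of all. Of these 8, Flt1 and Nrp1 passed the filter of 1 TPM in 3 libraries only with WT HSC 2 counted. The filter thus favoured their place in this count. The ratio of WT HSC 1 to WT HSC 2 was 0.0211 for Stab2, 0.0458 for Lyve1, 0.136 for Stab1, 0.110 for Flt4 and 0.142 for Kdr. In the library labelled WT KL 1, 6 of the 34 genes were more than 4 times lower than in WT HSC 2, all among the 14: Mmrn2, Flt1, Flt4, Stab1, Stab2 and Gja4. Of these, Mmrn2 and Gja4 were too low to be tested. The share of all genes low in that library was not taken, so this count is only a description. The ratio of WT HSC 1 to 2 was 0.747 for Tek, 0.742 for Tie1, 0.925 for Adgrl4, 0.848 for Neurl3 and 1.17 for Mmrn1. Stab1, Stab2, Lyve1, Flt4 and Kdr thus differed far more between WT HSC 1 and 2 than these 5 genes did. With 1 library on each side these ratios have no replicate check.

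**Figure D4:**
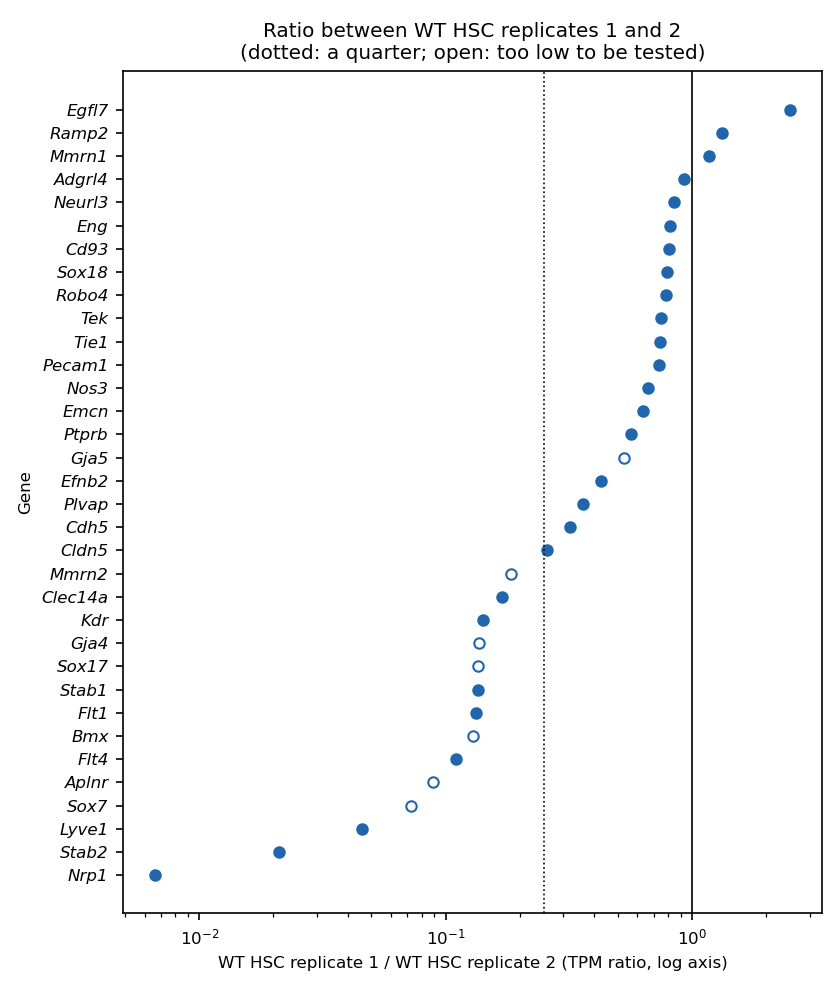
Ratio of TPM in WT HSC replicate 1 to that in WT HSC replicate 2 (log axis) for the 34 genes, with open points for genes too low to be tested, a solid line at 1 and a dotted line at a 4 times lower value. Points run from Nrp1 at 0.00662 to Egfl7 at 2.5, and 14 lie left of the dotted line.

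Other genes moved the same way in WT HSC 1. WT HSC 1 was more than 4 times lower than WT HSC 2 and than every Evi1 HSC library in 122 genes (0.644% of those tested), and 6 of them were members: Flt1, Flt4, Lyve1, Nrp1, Stab1 and Stab2. Of these 6, Flt1 and Nrp1 passed the filter only with WT HSC 2 counted. A pair of the 122 that are not members is named after its values were seen. Many of the rest were unnamed gene models or small RNAs at low levels, so the pair does not stand for the 122. Mrc1, a scavenger receptor of liver endothelium and macrophages, was at 6.38, 6.37 and 7.81 TPM across Evi1 HSC, 0.199, 5.61 and 0 TPM across libraries labelled WT HSC, and 1.35, 0 and 0.0436 TPM across those labelled WT KL. Ets1, an ETS factor, was at 14.8, 14.99 and 16.5 TPM across Evi1 HSC, 1.87, 12.8 and 0.151 TPM across libraries labelled WT HSC, and 1.92, 0.263 and 0.0169 TPM across those labelled WT KL. That both were lowest in WT HSC 1, among the HSC libraries kept, follows from how the 122 genes were chosen. The sum of Stab1, Stab2 and Lyve1 was 31.5, 28.6 and 25.1 TPM across Evi1 HSC, 1.65, 24.8 and 0.316 TPM across libraries labelled WT HSC, and 5.74, 0.314 and 0.312 TPM across those labelled WT KL. A list of 7 endothelial genes (Stab2, Lyve1, Plvap, Cldn5, Flt4, Nos3 and Aplnr) was taken as markers not shared with stem cells, a choice not checked here. It summed to 37.99, 36.6 and 38.1 TPM across Evi1 HSC, 5.47, 31.7 and 1.82 TPM across libraries labelled WT HSC, and 10.7, 3.69 and 2.09 TPM across those labelled WT KL. Of them Plvap was also at 3.49 and 1.94 TPM in WT KL 2 and 3. All 7 are members, so this list carries no further evidence, and only Aplnr of them was under 1 TPM in every library. The part of endothelial cells in the sorted samples in these values was not tested.

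Markers of other liver cells were read beside the members. Over 9 macrophage genes the summed level was 2.66 to 5.67 TPM in Evi1 HSC, 2.52 to 7.71 TPM in libraries labelled WT HSC and 5.18 to 10.8 TPM in those labelled WT KL, with 2.95 TPM in WT HSC 1 and 2.52 TPM in WT HSC 2. Over 7 stromal genes it was 0.718 to 1.34 TPM in Evi1 HSC, 0.773 to 1.97 TPM in WT HSC and 0.991 to 1.86 TPM in WT KL. Over 6 hepatocyte genes it was 0.658 to 6.11 TPM in Evi1 HSC, 1.0 to 2.51 TPM in WT HSC and 0.239 to 22.4 TPM in WT KL, highest in the library labelled WT KL 1. Over 6 erythroid genes it was 12.1 to 41.9 TPM in Evi1 HSC, 74.2 to 392 TPM in WT HSC and 89.5 to 446 TPM in WT KL, and WT HSC 1 and 2 were near each other at 76.8 and 74.2 TPM. No gene of these lists was at 0 in all 9 libraries, and 6 macrophage, 5 stromal and 2 hepatocyte genes were under 1 TPM in all. Their part in the members' values was not tested.

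Partners of the members were read from lists of known pathway genes. Of 24 ligands, co-receptors and signalling partners 20 were tested with 7 libraries, and 14 were higher and 1 lower in WT HSC than in WT KL, with a median difference of 2.05, where 27.3% of all genes tested were called higher and 10.4% lower and their median was 0.259. In Evi1 HSC against WT KL 17 were higher and 1 lower, where 31.9% and 13.9% of all genes were, and in Evi1 HSC against WT HSC none was called. Of those called higher, 7 of the 14 and 9 of the 17 were under 1 TPM in both WT KL 2 and 3 and passed the filter only through the HSC groups. The lower gene was Angptl4 in both, named after its values were seen, at 2.19 ± 0.627 TPM in Evi1 HSC (SD, n = 3), 2.16 ± 0.151 TPM in WT HSC (n = 2) and 5.59 ± 0.455 TPM in WT KL (n = 2). Angpt1, the ligand of Tie2, was at 90.3, 84.8 and 140.4 TPM across Evi1 HSC, 60.5, 104 and 1.25 TPM across libraries labelled WT HSC, and 67.9, 1.57 and 1.72 TPM across those labelled WT KL. Calcrl, the receptor that Ramp2 serves, was at 129.8, 96.4 and 119 TPM across Evi1 HSC, 109, 127 and 3.96 TPM across libraries labelled WT HSC, and 130.2, 3.94 and 3.43 TPM across those labelled WT KL. Angpt1 was higher in WT HSC than in WT KL by 4.93 (SE 0.32, limma adjusted p = 1.34e-04) and Calcrl by 4.66 (SE 0.18, adjusted p = 2.64e-05). Vezf1, a zinc finger factor of vessels, was at 46.95, 42.7 and 48.2 TPM across Evi1 HSC, 40.9, 45.3 and 12.8 TPM across libraries labelled WT HSC, and 44.2, 11.96 and 11.1 TPM across those labelled WT KL. Notch1, the receptor behind arterial fate, was at 43.9, 24.6 and 50.9 TPM across Evi1 HSC, 17.9, 18.3 and 3.98 TPM across libraries labelled WT HSC, and 16.5, 2.87 and 4.37 TPM across those labelled WT KL.

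Of 24 transcription factors of endothelium 16 were tested, and 12 were higher and none lower in WT HSC than in WT KL, against 27.3% of all genes higher, with a median of 2.31 against 0.259. In Evi1 HSC 15 were higher than in WT KL, against 31.9% of all genes, and none was called between Evi1 HSC and WT HSC. Of the 12 and the 15, 2 and 3 passed the filter only through the HSC groups. Erg, the ETS factor that maintains endothelial identity, was at 77.6, 64.5 and 94.2 TPM across Evi1 HSC, 67.3, 65.6 and 2.15 TPM across libraries labelled WT HSC, and 62.9, 2.94 and 1.18 TPM across those labelled WT KL, and was higher in WT HSC than in WT KL by 4.53 (SE 0.30, limma adjusted p = 1.37e-04). Lmo2 was at 446, 370.5 and 282 TPM across Evi1 HSC, 419, 443 and 155 TPM across libraries labelled WT HSC, and 417, 201 and 190.3 TPM across those labelled WT KL. Etv6 was at 113, 101 and 111 TPM across Evi1 HSC, 92.9, 101 and 21.1 TPM across libraries labelled WT HSC, and 107, 23.2 and 17.4 TPM across those labelled WT KL. Both are blood and vessel regulators, and both stayed above 17 TPM in WT KL. Mef2c was at 96.01, 66.97 and 128 TPM across Evi1 HSC, 83.7, 96.9 and 5.77 TPM across libraries labelled WT HSC, and 65.6, 5.11 and 8.76 TPM across those labelled WT KL.

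Of 18 further surface genes shared by stem cells and endothelium 15 were tested, and 10 were higher and none lower in WT HSC than in WT KL, against 27.3% of all genes higher, with a median of 2.60 against 0.259. In Evi1 HSC against WT KL 14 were higher, against 31.9% of all genes, and in Evi1 HSC against WT HSC none was called. Of the 10 and the 14, 6 and 10 passed the filter only through the HSC groups, Esam and Procr among them. Cd34, a sialomucin, was at 107, 113 and 108 TPM across Evi1 HSC, 103, 107 and 24.2 TPM across libraries labelled WT HSC, and 130.2, 25.2 and 17.1 TPM across those labelled WT KL. Esam, a junction protein, was at 95.9, 94.4 and 85.6 TPM across Evi1 HSC, 65.2, 79.1 and 0.0885 TPM across libraries labelled WT HSC, and 92.2, 0.0181 and 0 TPM across those labelled WT KL, and the difference of WT HSC from WT KL was 6.17 (SE 0.15). Procr, the protein C receptor, was at 27.6, 25.99 and 35.8 TPM across Evi1 HSC, 23.6, 30.3 and 0 TPM across libraries labelled WT HSC, and 24.8, 0 and 0.137 TPM across those labelled WT KL. Procr overlapped between Evi1 HSC and WT HSC 1 and 2. Cd34 and Esam were higher in every Evi1 HSC library than in WT HSC 1 and 2, as were 11.9% of all genes tested, and neither was called. For Cd34 the lowest Evi1 HSC library and WT HSC 2 were nearly equal, at 106.56 and 106.51 TPM.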

How the data were processed

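The deposited values are TPM per gene, 1 library to a file, per the file headers. The submitters' processing notes name HISAT2, StringTie and mm10. The annotation and the use of strand are not given in the sources consulted. In the file of WT HSC replicate 2 the value column is headed C_H3 and was used as TPM. Per library, 56.9 to 63.8% of the TPM scale fell on listed genes. TPM keeps no depth, so no count model or counting interval was used.

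limma 3.58.1 (R 4.3.3) was fitted to log2(TPM + 1), with 1 mean per group, a mean-variance trend and Benjamini-Hochberg adjustment over every gene that reached 1 TPM in 3 or more libraries (19461 genes with 9 libraries, 18943 with 7). Of the 34 members 27 passed in each fit, and Mmrn2, Aplnr, Sox7, Sox17, Gja4, Gja5 and Bmx did not. Calls are at an adjusted p under 0.05. Fold changes on this scale understate those of low genes. The fit was tested on simulated data. The members and lists were chosen with earlier results of these data known. Members at 5 TPM or more on average or called in a comparison are given in every library, the others by their range. Of each further list the 4 genes with the highest mean are named, and Angptl4, Ets1, Mrc1, Gpr182 and Fcgr2b were added after their values were seen. Coordinates and exon overlaps come from GENCODE M21 on GRCm38, which matched 55141 of 55488 IDs, and sequences from RefSeq on GRCm38.p6. Alternatives were other pseudocounts, filters, scalings, fits and left-out replicates.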

Additional observations from a re-analysis of the deposited data

How the results depend on the processing

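With 7 libraries the members called numbered 15 to 24 for WT HSC against WT KL, 19 to 26 for Evi1 HSC against WT KL and 0 to 2 for Evi1 HSC against WT HSC when 1 replicate was left out, against 19, 25 and 0 with all. The calls of Stab2 and Lyve1 in the last came without WT HSC replicate 2, which leaves 1 WT HSC library. Both then passed the filter only through Evi1 HSC. With 9 libraries as labelled the members called were 0 to 1 in both Evi1 comparisons and 0 in WT HSC against WT KL. The 1 was Stab2 without WT HSC replicate 2, where it again passed the filter only through Evi1 HSC. With the compared groups alone, WT HSC against WT KL called 5 members, since 14 of the 19 called with all then missed the filter of 1 TPM in 3 libraries. With 7 libraries, deviations of same-numbered libraries correlated at -0.071 to -0.007. The 2 libraries of each WT group deviate as mirror images, and WT KL 1 is left out. Whether replicate numbers pair the samples is thus not decided by this check. A fit with the number as a replicate block called 19 members in WT HSC and 25 in Evi1 HSC over WT KL and 0 in Evi1 HSC over WT HSC, with a Tek difference of -0.077 in the last. Over left-out replicates, uncalled differences of Evi1 HSC against WT HSC changed sign, with a range of -0.16 to 0.25 for Tek, -0.082 to 0.34 for Tie1, -0.65 to 1.5 for Kdr, -0.19 to 1.27 for Cdh5, -0.14 to 1.97 for Stab1 and -0.10 to 1.22 for Egfl7. Plvap in WT HSC against WT KL ran from -0.47 to 0.60 and was -0.015 with median-ratio scaling. The cause of these changes was not tested. Clec14a, Cldn5 and Kdr, called for WT HSC against WT KL, lost the call with no filter on low values, and Clec14a and Cldn5 also without WT HSC 2, WT KL 2 or WT KL 3, as did Clec14a without Evi1 HSC 1 or 2. For Evi1 HSC against WT KL the calls of Flt4, Flt1, Clec14a, Efnb2 and Stab2 were lost without WT KL 2 and also without WT KL 3, that of Kdr without WT KL 3, and the replicate block lost Efnb2 and gained Nrp1. No called difference given above reversed its sign under any alternative run. Depth is unknown, which limits what a value near 0 TPM can show.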

Other observations

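Genes outside the set shared the low level in WT HSC replicate 1, and those named here were chosen after their values were seen. No share over all genes was taken for the library labelled WT KL 1. In 122 genes WT HSC 1 was more than 4 times lower than WT HSC 2 and every Evi1 HSC library. Of these, 26 were low by the same measure in the library labelled WT KL 1. Among these, Oit3, a gene known from liver sinusoidal endothelium, was at 9.71, 9.52 and 17.5 TPM across Evi1 HSC, 0.456, 12.1 and 0 TPM across libraries labelled WT HSC and 1.23, 0 and 0.0332 TPM across those labelled WT KL. Esm1, endocan, an endothelial proteoglycan, was at 1.55 to 4.2 TPM in Evi1 HSC, 0 TPM in WT HSC 1 and 3.4 TPM in WT HSC 2. Mest, an imprinted gene, was at 39.96 to 58.5 TPM across Evi1 HSC libraries 1 to 3, 1.13 TPM in WT HSC 1 and 58.4 TPM in WT HSC 2. The 122 also held Echs1, Etfa, Pigu and Por. These were at 6.73, 11.8, 5.21 and 4.77 TPM in WT HSC 1 and 32.7, 51.8, 23.2 and 30.9 TPM in WT HSC 2. Each was at 17.1 TPM or more in WT KL 2 and 3. Many of the 122 were unnamed gene models or small RNAs at low levels, so the genes named do not stand for the whole. Gpr182, a receptor of sinusoidal endothelium outside the 122, was at 2.25 to 2.64 TPM in Evi1 HSC, 0.638 TPM in WT HSC 1 and 5.16 TPM in WT HSC 2. Fcgr2b, of the same list of surface genes as Gpr182 and Mrc1, did not share this pattern. It was at 0.0292 to 0.159 TPM in Evi1 HSC, 0.0456 and 0.0236 TPM in WT HSC 1 and 2, and 10.6 and 2.0 TPM in WT KL 2 and 3.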
